A study of Homo sapiens with 15 samples.

Results

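The enzymes that build cholesterol and fatty acids were followed in MT-2, an established line of CD4+ T cells that the human T-lymphotropic virus HTLV-1 transformed, after treatment with ascorbic acid (AA) or interferon-α (IFN-α). The gene list held 30 genes, chosen by name and with earlier results of these data known. They were 18 sterol synthesis enzymes, 5 genes of sterol sensing and sterol carriage, and 7 fatty acid enzymes. Of the 30, 28 were measured by a transcript cluster (the array's unit for 1 gene) that the probe annotation gave to that gene alone, out of 28926 clusters on the array. These were 16 of 18 sterol enzymes, all 5 regulators and all 7 fatty acid enzymes, each with exactly 1 cluster. FDFT1 had no cluster under its symbol in the annotation used, and the cluster of HSD17B7 was shared with its pseudogene HSD17B7P2, so neither is given a value.

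Cultures were left untreated or received AA at 10 µg/ml (low dose), 50 µg/ml (intermediate dose) or 100 µg/ml (high dose), or IFN-α2A at 1000 IU/ml, for 48 hours, all in the same serum-supplemented medium. Each of the 5 conditions had 3 arrays, 1 in each of 3 experiments, so that every experiment held all conditions. The titles gave experiments 2 and 3 tags of the same date with different letters and experiment 1 another date. Every array was of 1 cell line, and nothing in the labels says how far the cultures were independent, so p-values measure the spread between these arrays. A lower value in such bulk RNA cannot tell fewer expressing cells from less RNA per cell.

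Cholesterol is made from acetyl-CoA through mevalonate, the isoprenoid pyrophosphates, squalene and lanosterol, and fatty acids branch off from the same acetyl-CoA. Transcription of both routes is driven by the SREBP factors, encoded by SREBF1 and SREBF2, which SCAP escorts from the endoplasmic reticulum when sterols are low and which INSIG1 holds back when sterols are high. Many of these genes, INSIG1 and SREBF2 among them, are targets of SREBP, and proliferating T cells are known to raise the pathway to supply membrane.

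Promoters are shown for 4 members, taken as examples of their lists: HMGCS1 for the mevalonate enzymes, INSIG1 and SREBF2 for the regulators, and STARD4 for sterol carriage. The sequences, from RefSeq on GRCh38.p14, are the 250 bases before the start site, written 5′ to 3′ on the gene's strand. Capitals mark CCAAT, the site of the SREBP partner NF-Y, which reads ATTGG where it lies on the other strand, and TCACNCCAC, a sterol response element. HMGCS1 lies at chr5:43313413-43313662, minus strand. INSIG1 lies at chr7:155297628-155297877, plus strand. SREBF2 lies at chr22:41832855-41833104, plus strand. STARD4 lies at chr5:111512536-111512785, minus strand.
HMGCS1: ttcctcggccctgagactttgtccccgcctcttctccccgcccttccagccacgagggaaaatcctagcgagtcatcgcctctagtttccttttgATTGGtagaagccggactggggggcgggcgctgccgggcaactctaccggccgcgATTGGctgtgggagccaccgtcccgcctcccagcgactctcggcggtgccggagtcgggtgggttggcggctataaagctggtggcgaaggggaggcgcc
INSIG1: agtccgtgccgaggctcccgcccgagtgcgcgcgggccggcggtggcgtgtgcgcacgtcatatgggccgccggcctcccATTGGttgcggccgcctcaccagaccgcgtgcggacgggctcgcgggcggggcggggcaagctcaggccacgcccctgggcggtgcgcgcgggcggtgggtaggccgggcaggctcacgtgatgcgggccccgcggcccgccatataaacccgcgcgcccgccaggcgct
SREBF2: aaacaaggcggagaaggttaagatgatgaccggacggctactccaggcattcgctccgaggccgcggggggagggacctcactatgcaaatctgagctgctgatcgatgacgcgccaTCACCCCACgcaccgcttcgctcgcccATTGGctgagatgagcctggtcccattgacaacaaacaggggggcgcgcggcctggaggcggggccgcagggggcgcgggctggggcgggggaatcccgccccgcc
STARD4: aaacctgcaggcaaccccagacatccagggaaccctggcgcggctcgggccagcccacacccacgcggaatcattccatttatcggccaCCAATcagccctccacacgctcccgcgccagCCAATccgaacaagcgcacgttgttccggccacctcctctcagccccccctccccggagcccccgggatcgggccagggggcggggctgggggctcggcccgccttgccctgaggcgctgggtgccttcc
Of the 30 listed genes, 26 had a promoter in the table, and ACAT2, FASN, SQLE and FDFT1 had none. On either strand, CCAAT stood in 19 of these 26 (73.1%) against 37% of 27305 genes in the table. The GC box GGGCGG stood in 25 of 26 (96.2%) against 46.2% of genes, and the E-box CACGTG in 3 of 26 (11.5%) against 7.73%. The motif TCACNCCAC stood in SREBF2 alone, against 1.09% of genes, and did not overlap the CCAAT match there. For HMGCS1 the table gives another start site too, whose window (not shown) held no CCAAT. All 4 promoters shown held CCAAT, whereas that of CYP51A1, which had the largest change at the high dose, held none (not shown). These counts describe letters in a window, not sites in use.

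The arrays had median log2 values from 6.69 to 6.85. Apart from 1 array, each correlated with the others at a mean r of 0.9914 to 0.9946 over all clusters. The exception was high-dose AA replicate 3 of experiment 3, with a mean r of 0.9756 and an SD of its log2 values of 2.02, against 2.12 to 2.18 on the others, and results that rest on it are also given without it. Where a single array was left out, the other arrays of its experiment stayed in. Unless the experiment is in the model, the groups then hold unequal shares of the experiments, and the value also carries the difference between experiments. CD4, IL2RA and CCR4 were in the brightest 25% of clusters on all 15 arrays and CD7 on 11, whereas the other 6 of 10 T-cell markers measured (CD2, CD3D, CD3E, CD5, CD28 and FOXP3) were on none, and none of the 12 markers measured for CD8, NK, B or myeloid cells was. IFN-α raised the interferon-stimulated gene OAS1 by 3.54 (adjusted p = 5.63e-12, limma). Of the other such genes checked, IFI44L rose by 4.99, MX1 by 3.44 and ISG15 by 0.63. IFIT1 was at 0.32 and did not pass an adjusted p under 0.05 (limma). Its signal was below the lower quartile on all 15 arrays.

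More members passed the thresholds between experiments than between treatments, but the tests are unlike. The experiment test pools all 5 conditions and takes out their differences, whereas the treatment test leaves the differences between experiments in its error. In size neither was the larger throughout: HMGCS1 differed by 0.66 between experiments and -0.32 at the high dose, STARD4 by 0.21 and -0.52. Over the 5 conditions, experiment 1 stood above the mean of experiments 2 and 3 for 23 of 28 members at an adjusted p under 0.05 (limma, condition in the model), where 3.98% of all clusters and 8.03% of the brightest 25% stood higher. At p under 0.001, unadjusted, 21 members were higher, that is 21 of 28 against 2.70% of clusters: 12 of 16 sterol enzymes, 3 of 5 regulators and 6 of 7 fatty acid enzymes. Leaving out the high-dose array of experiment 3 gave 23 of 28 at that threshold (3.37% of clusters), and leaving out low-dose AA replicate 1 or high-dose AA replicate 1 gave 13 each. The fit takes the difference between experiments as the same in all conditions, so lower AA values in experiment 3 alone also enter it. The median level of the sterol enzymes was 10.45, 10.07 and 10.19 in untreated cells of experiments 1, 2 and 3. At the high dose it was 10.31, 9.83 and 9.12.

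Of the 28, HMGCS1 had the lowest adjusted p. HMGCS1, which makes HMG-CoA, read 12.34, 11.73 and 11.78 in untreated cells of experiments 1, 2 and 3, and 12.42, 11.78 and 12.02 with IFN-α. With low, intermediate and high AA it read 12.21, 12.24 and 12.17 in experiment 1, but at most 11.72 in the others. Experiment 1 was highest in each condition and did not overlap the others, by 0.66 on the log2 scale (SE 0.076, adjusted p = 0.000851, limma). ACAT2, which condenses acetyl-CoA, was higher by 0.68 (SE 0.11, adjusted p = 0.00448, limma), and the mevalonate kinase MVK by 0.68 (SE 0.12, adjusted p = 0.00844, limma). The isoprenoid enzymes followed, MVD by 0.64, FDPS by 0.64 and IDI1 by 0.50, with adjusted p from 0.00219 to 0.0107 (limma). PMVK, which adds the next phosphate after MVK, differed by 0.10 (SE 0.047) and missed the threshold (adjusted p = 0.223, limma).

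The enzymes from squalene to cholesterol were also higher in experiment 1. SQLE, which oxidises squalene, was higher by 0.44 (SE 0.054, adjusted p = 0.00123, limma). CYP51A1, the lanosterol demethylase, had the largest difference among the sterol enzymes at 0.70, with the widest error (SE 0.17, adjusted p = 0.0369, limma). LSS, MSMO1, NSDHL, EBP, SC5D and DHCR7 differed by 0.31 to 0.63 and passed as well. TM7SF2, the sterol reductase, differed by 0.24 and did not (adjusted p = 0.202, limma).

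Among the regulators, INSIG1 was higher in experiment 1 by 0.64 (SE 0.082, adjusted p = 0.00144, limma), SREBF2 by 0.40 and SREBF1 by 0.39. SCAP stood apart, at -0.030 (SE 0.067, 95% interval -0.18 to 0.12, adjusted p = 0.819, limma), and STARD4, a sterol carrier, at 0.21 (adjusted p = 0.245, limma). The fatty acid enzymes ran with the sterol enzymes. SCD, which desaturates stearate, was higher by 0.71 (SE 0.11, adjusted p = 0.004, limma), and ACACA, ACLY, FASN, FADS1 and ELOVL6 by 0.35 to 0.44. FADS2, a desaturase of polyunsaturated chains, was higher by 0.27 and just missed (adjusted p = 0.051, limma). By condition, experiment 1 was the highest of the 3 for 25 to 27 of 28 members, against 33.2% to 45% of all clusters and 34.3% to 60.1% of the brightest 25%. Of the 10 T-cell markers, only FOXP3 (0.565, adjusted p = 0.000414) and CD2 (0.30, adjusted p = 0.016) passed an adjusted p under 0.05 (limma), both higher in experiment 1. CD4 (0.15) and CCR4 (0.16) were higher without passing. CD3E (-0.22), CD3D (-0.22), CD7 (-0.13), CD5 (-0.11), CD28 (-0.11) and IL2RA (-0.0035) were lower. The part of these markers in the result was not tested.

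**Figure D1:**
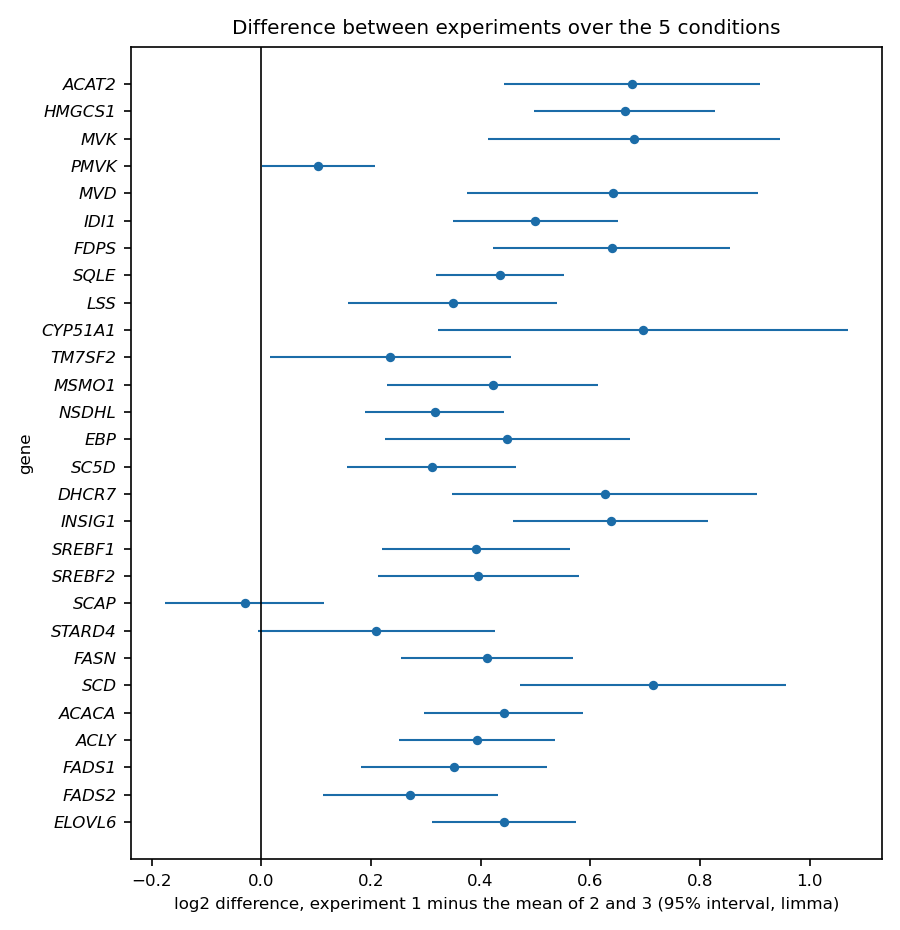
Difference in log2 value between experiment 1 and the mean of experiments 2 and 3 over the 5 conditions, for each of the 28 genes, with the 95% interval from limma. SCAP and STARD4 have intervals that include 0, and HMGCS1 and SCD lie at 0.66 and 0.71.

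Experiments 2 and 3 were closer. No member passed p under 0.001 between them, where 0.377% of clusters did. At p under 0.05, 11 of 28 were lower in experiment 3, where 7.38% of clusters were, among them SREBF1 (-0.30, SE 0.091), FASN (-0.27, SE 0.083) and TM7SF2 (-0.34, SE 0.12), whose adjusted p ran from 0.274 to 0.289 (limma). Without the high-dose array of experiment 3 this count was 4 of 28 (5.89% of clusters). In untreated cells experiment 3 was the lowest for 4 of 28 members, where 34.7% of clusters were lowest in that experiment. With AA it was the lowest for 25, 27 and 27 of 28 at the low, intermediate and high dose, and with IFN-α for 19 of 28. The shares of all clusters there were 30.9%, 35.4%, 36.5% and 34.5%, and those of the brightest 25% were 37.3%, 45.2%, 62.4% and 34.8%.

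High-dose AA against untreated cells asked whether AA moved the pathway, and no member passed the threshold of p under 0.001 that the study's methods set, where 0.259% of clusters passed. All 16 sterol enzymes had a lower mean at the high dose, as did 6 of 7 fatty acid enzymes and 4 of 5 regulators. The median change was -0.38 for the sterol enzymes, -0.25 for the regulators and -0.22 for the fatty acid enzymes, against 0.016 over all clusters and -0.042 over the brightest 25%. At p under 0.05, 2 members (7.14%) were past the line, CYP51A1 and STARD4, both lower. Of all clusters 11.0% were, a share that counts higher and lower clusters together. No cluster of the array had an adjusted p under 0.05.

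CYP51A1 read 10.46, 10.01 and 10.11 in untreated cells of experiments 1, 2 and 3 and 10.01, 9.61 and 8.15 at the high dose. The high-dose array was the lower in each experiment, with differences of -0.45, -0.40 and -1.96, so most of the size came from experiment 3, and the groups touched at 10.01. Its mean was 10.19 ± 0.24 (SD, n = 3) untreated and 9.26 ± 0.98 at the high dose. The change was -0.94 (SE 0.39, 95% interval -1.77 to -0.10, adjusted p = 0.444, limma). Without the high-dose array of experiment 3 it was -0.39 (SE 0.29, limma) and did not pass p under 0.05.

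STARD4, which carries sterol between membranes, was the member whose AA arrays all lay below the untreated ones. It read 10.52, 10.44 and 10.55 in untreated cells, and 10.31, 10.21 and 9.42 at the high dose. With the low dose it read 10.29, 10.22 and 9.97, and with the intermediate dose 10.30, 10.28 and 10.11. None of these 9 AA arrays reached the lowest untreated array, which held for 0.795% of clusters. STARD4 was also the one member of 28 whose 3 high-dose arrays lay below the 3 untreated arrays, as 3.66% of clusters did. The change at the high dose was -0.52 (SE 0.18, 95% interval -0.91 to -0.14, adjusted p = 0.422, limma). Without the high-dose array of experiment 3 it was -0.25 (SE 0.11, adjusted p = 0.986, limma), still past p under 0.05 unadjusted. IFN-α arrays read 10.66, 10.39 and 10.47 and overlapped the untreated ones.

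**Figure D2:**
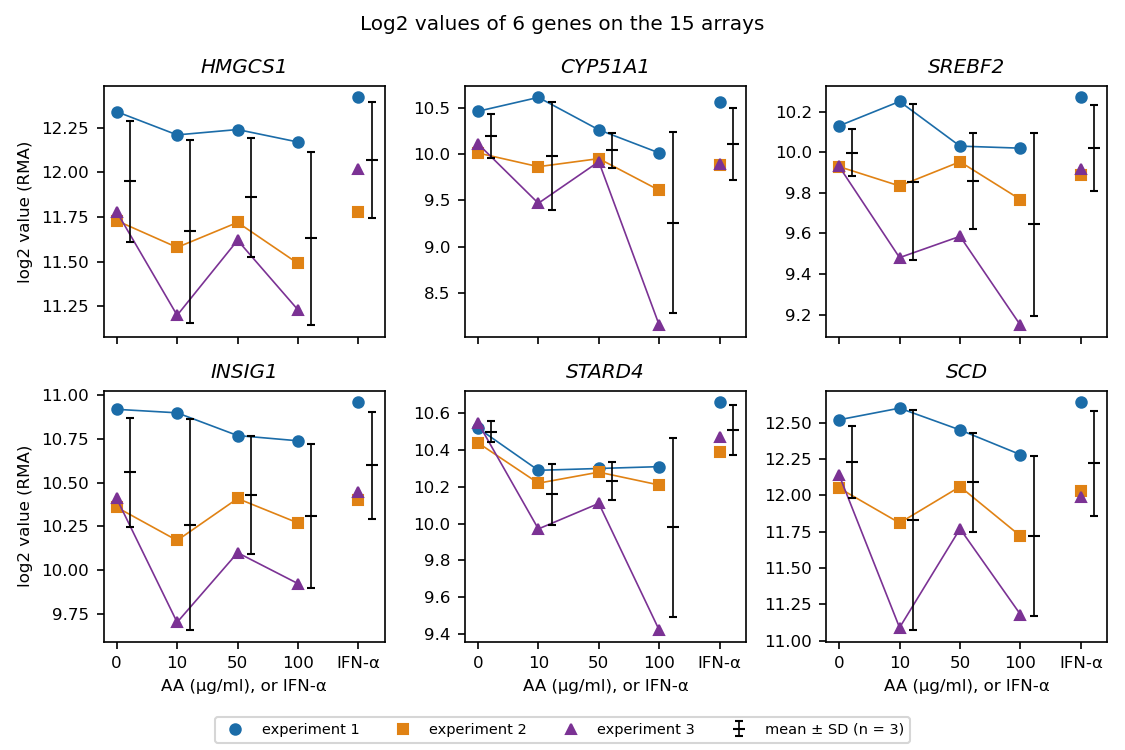
Log2 value of 6 genes on each of the 15 arrays, against AA dose with IFN-α at the right, with 1 colour and symbol for each experiment, lines joining the AA doses of an experiment, and black marks for the mean ± SD of 3 arrays. STARD4 is lower at every AA dose in every experiment, and experiment 1 lies highest for HMGCS1 in all conditions.

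Because the 3 experiments differed, each treated array was also set against its own experiment's untreated array. At the high dose 24 of 28 members were lower in all 3 experiments, against 11.4% of all clusters and 16.4% of the brightest 25%. These were 15 of 16 sterol enzymes, 5 of 7 fatty acid enzymes and 4 of 5 regulators. MVD, which decarboxylates mevalonate pyrophosphate, was level in experiment 2 (a difference of 0.0053), and FASN, the fatty acid synthase, was higher there by 0.040. SCAP differed by 0.37, 0.11 and -0.27 in experiments 1, 2 and 3, and ELOVL6, an elongase, by 0.20, 0.054 and -0.12.

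The size was uneven. The median difference of the sterol enzymes was -0.11, -0.16 and -0.93 in experiments 1, 2 and 3, and that of the fatty acid enzymes -0.059, -0.062 and -0.59. The brightest 25% of clusters moved by 0.078, -0.014 and -0.19. All 28 members were lower in experiment 3. Beside CYP51A1, the differences were -1.28 for DHCR7, a late enzyme of the route, -1.19 for MVD, -1.14 for MVK, -1.13 for STARD4 and -1.04 for EBP, a sterol isomerase. In experiments 1 and 2 alone, all 16 sterol enzymes had a lower mean, with a median of -0.12 beside 0.030 for the brightest 25%.

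**Figure D3:**
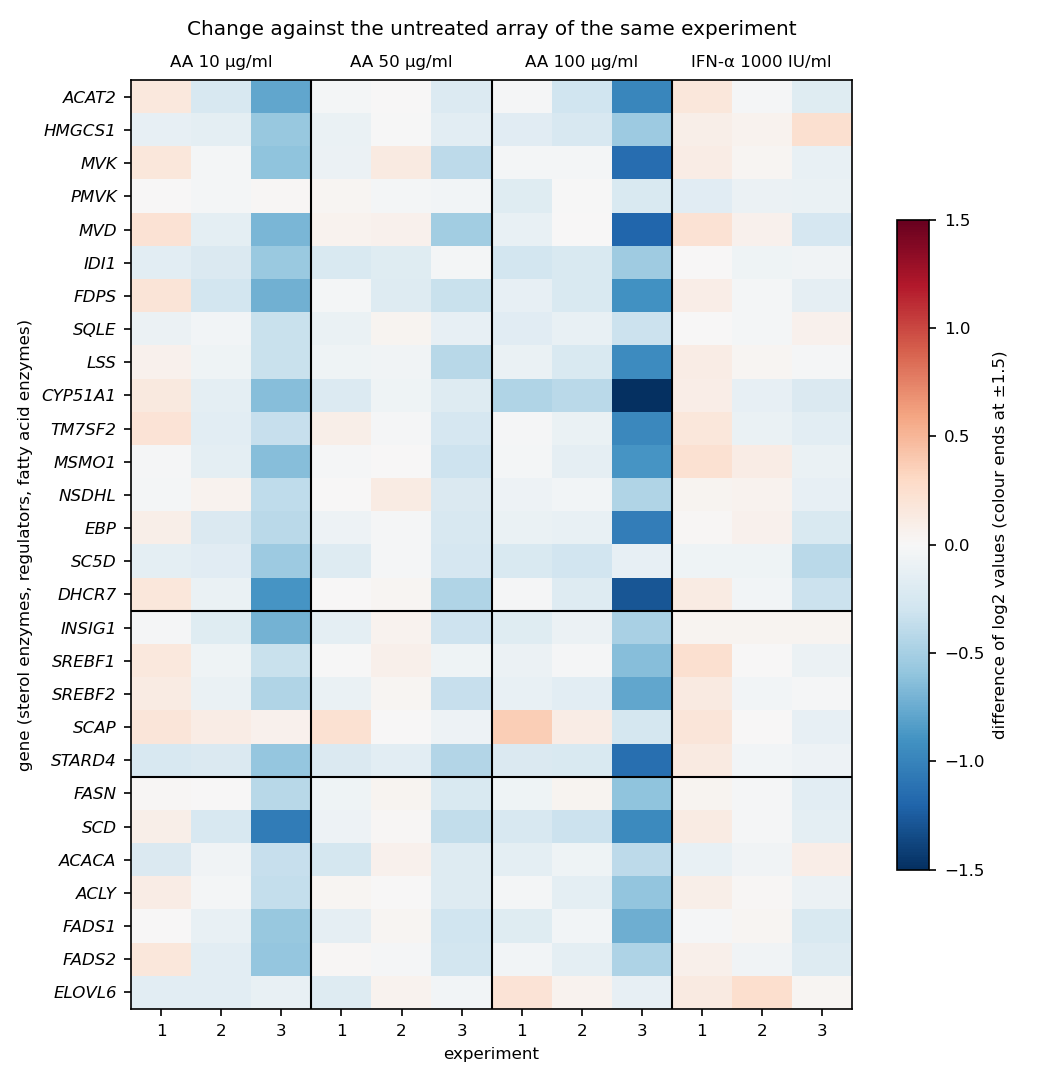
Difference of log2 values between each treated array and its experiment's untreated array, for 28 genes in 3 lists parted by lines and 12 treated arrays, with blue for lower and red for higher. The high-dose column of experiment 3 is blue for all 28 genes, and the low-dose column of experiment 3 for 26.

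With the experiment as a block in the same limma model, 19 of 28 members passed p under 0.05 at the high dose, all lower, where 16.2% of clusters passed and 6.50% passed as lower. Among the brightest 25% the lower share was 10.9%. They were 14 of 16 sterol enzymes, 3 of 7 fatty acid enzymes (SCD, ACLY and FADS1) and the regulators SREBF2 and STARD4. PMVK and SC5D were the sterol enzymes that did not pass. The 5 members with the lowest adjusted p were CYP51A1 (0.167), STARD4 (0.174), IDI1 (0.191), LSS (0.194) and SCD (0.21), so none passed an adjusted p of 0.05 (limma with the block). The block left each change as it was and narrowed its error, for CYP51A1 from an SE of 0.39 to 0.26. With the experiment as a random effect instead, the count was 3 of 28 (LSS, CYP51A1 and STARD4), all lower. Of all clusters 14.8% passed and 5.31% passed as lower. That fit gave every cluster the same correlation within an experiment, 0.157, whatever its own difference between experiments. For HMGCS1 the SE was 0.29 without a block, 0.22 with the random effect and 0.11 with the fixed block. For SCAP, at -0.030 between experiments, it was 0.099 with either. The 19 thus rest on the fixed block, and the 3 on the shared correlation.

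Leaving out the high-dose array of experiment 3 reduced the blocked count to 7 of 28, where 9.26% of all clusters and 10.9% of the brightest 25% passed. The 7 were LSS, IDI1, CYP51A1, SC5D, SCD and STARD4, which were lower, and SCAP, which was higher by 0.20 (SE 0.082, adjusted p = 0.484, limma with the block). CYP51A1 was then at -0.50 (SE 0.15, adjusted p = 0.327) and SC5D, a desaturase of the sterol ring, at -0.33 (SE 0.097, adjusted p = 0.33, limma with the block). Without the block and without that array, 2 of 28 passed, STARD4 and SCAP, against 4.93% of clusters. With no block, leaving out high-dose AA replicate 1 instead raised the count from 2 to 14, and leaving out untreated replicate 1 lowered it to 1. Each of these settings takes experiment 1, the higher for 23 of 28 members, out of 1 of the 2 groups only. The counts therefore also carry the difference between experiments. Of the 10 T-cell markers, CD4 (-0.32) and CCR4 (-0.26) also passed p under 0.05 at the high dose with the block (limma). The share of all clusters there was 16.2%. CD3E (-0.064) and CD28 (-0.013) were lower without passing. CD3D (0.11), CD2 (0.087), CD7 (0.048), FOXP3 (0.040), CD5 (0.025) and IL2RA (0.011) were higher without passing. The part of these markers in the result was not tested.

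**Figure D4:**
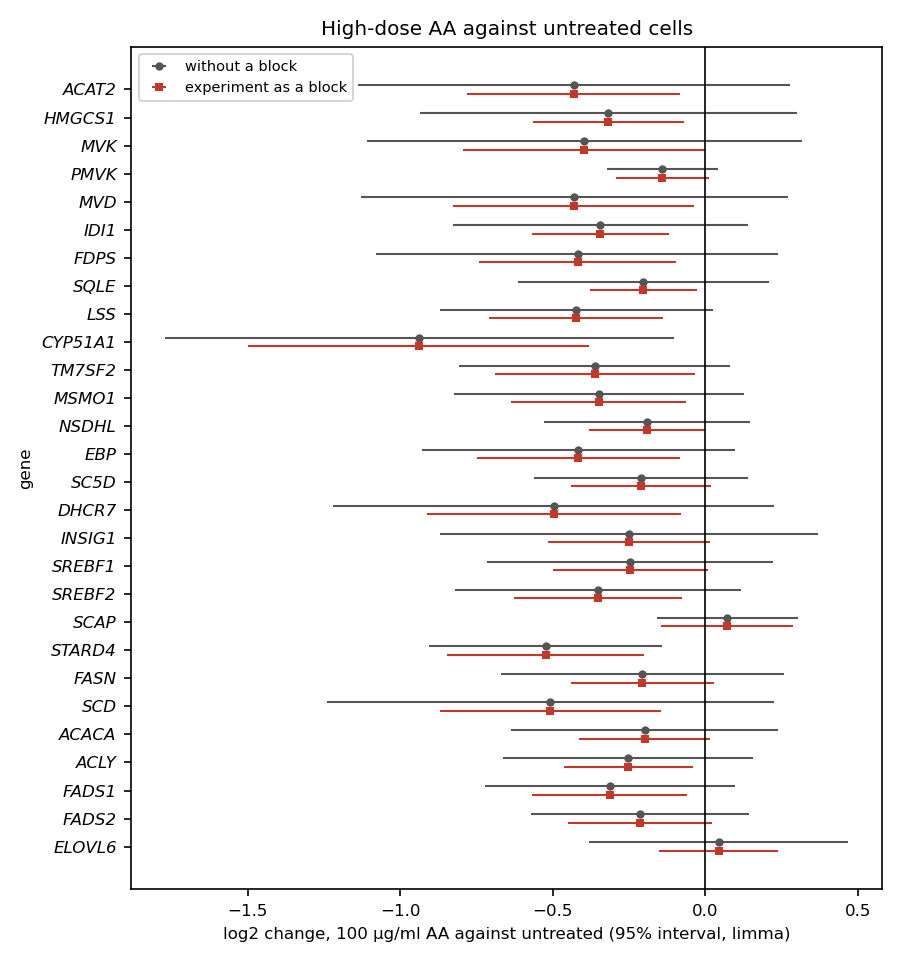
Log2 change at 100 µg/ml AA against untreated cells for the 28 genes with 95% intervals from limma, in grey without and in red with the experiment as a block. The points are the same in both, and with the block 19 intervals lie wholly below 0, against 2 without it.

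Among single members, LSS, which closes squalene epoxide to lanosterol, read 8.24, 8.09 and 8.10 untreated and 8.13, 7.86 and 7.15 at the high dose. The groups overlapped through experiment 1, and the change was -0.42 (SE 0.21, adjusted p = 0.474, limma). SREBF2, the factor that favours sterol genes, read 10.13, 9.93 and 9.93 untreated and 10.02, 9.77 and 9.15 at the high dose. Its difference was -0.35, with an SE of 0.22 without the block and 0.13 with it (adjusted p = 0.538 and adjusted p = 0.231, limma). INSIG1 read 10.92, 10.36 and 10.41 untreated and 10.74, 10.27 and 9.92 at the high dose, a difference of -0.25 (SE 0.29, adjusted p = 0.74, limma). SCD read 12.52, 12.05 and 12.14 untreated and 12.28, 11.72 and 11.18 at the high dose, a difference of -0.51 (SE 0.34, adjusted p = 0.566, limma). Its spread over experiments was as wide as the change.

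The low dose of AA was 10-fold below the high dose, yet experiment 3 was low there too. No member passed p under 0.001 (0.0207% of clusters) or 0.05 (2.54% of clusters). Without low-dose AA replicate 1, 6 passed 0.05, and 1 did without high-dose AA replicate 1 or 3. The median difference of the sterol enzymes was 0.073, -0.15 and -0.56 in experiments 1, 2 and 3, and that of the fatty acid enzymes 0.022, -0.11 and -0.41, beside -0.053 for the brightest 25% in experiment 3. The sterol median over the 3 arrays was -0.21. It was 0.014 without low-dose AA replicate 3 but with the untreated array of experiment 3 kept, so the experiments were not balanced there. SCD read 12.60, 11.81 and 11.09, above untreated in experiment 1 and at -1.05 from it in experiment 3. The low-dose array of experiment 3 had a mean r of 0.9937 with the other arrays, within their range. In experiment 3, 26 of 28 members at the low dose lay below all 3 untreated arrays, PMVK and SCAP being the others, against 24.5% of all clusters and 33.2% of the brightest 25%. The count was 26, 28 and 18 at the intermediate dose, at the high dose and with IFN-α, against 38%, 57.7% and 24.4% of the brightest 25%. With the block, 6 of 28 passed p under 0.05 against 4.58% of clusters: IDI1 (-0.31), SC5D (-0.29), INSIG1 (-0.31), HMGCS1 (-0.28), SCD (-0.40) and STARD4 (-0.34), all lower (adjusted p = 1 for each, limma). With the high-dose array of experiment 3 also left out, STARD4 passed p under 0.001 at the low dose (-0.34, SE 0.079, adjusted p = 0.487, limma with the block).

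The intermediate dose had the smallest shift of the AA doses, with a median of -0.11 for the sterol enzymes. Without intermediate-dose AA replicate 3, but with the untreated array of experiment 3 kept, it was 0.021. None of the 28 passed p under 0.001 (0.0311% of clusters) or 0.05 (2.34% of clusters), nor 0.05 with the block, and 1 passed 0.05 without high-dose AA replicate 3. The median of the sterol enzymes was -0.042, -0.0086 and -0.25 in experiments 1, 2 and 3, and all 28 members were lower in experiment 3, with differences from -0.52 to -0.024. The low dose lay below the intermediate dose for 27 of 28 members in experiment 2 and 25 of 28 in experiment 3, but for 6 of 28 in experiment 1, so levels did not fall steadily with dose. The slope on dose, per 100 µg/ml, passed p under 0.001 for no member (0.245% of clusters) and p under 0.05 for CYP51A1 (-0.83, SE 0.35) and STARD4 (-0.38, SE 0.17) by limma, against 11.5% of clusters. Without high-dose AA replicate 3, without untreated replicate 1 or without low-dose AA replicate 1, no member passed 0.05 for the slope, 1 passed without untreated replicate 2 or 3 or intermediate-dose AA replicate 3, and 5 without high-dose AA replicate 1. With the block 7 of 28 passed 0.05 for the slope, against 15.9% of clusters.

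**Figure D5:**
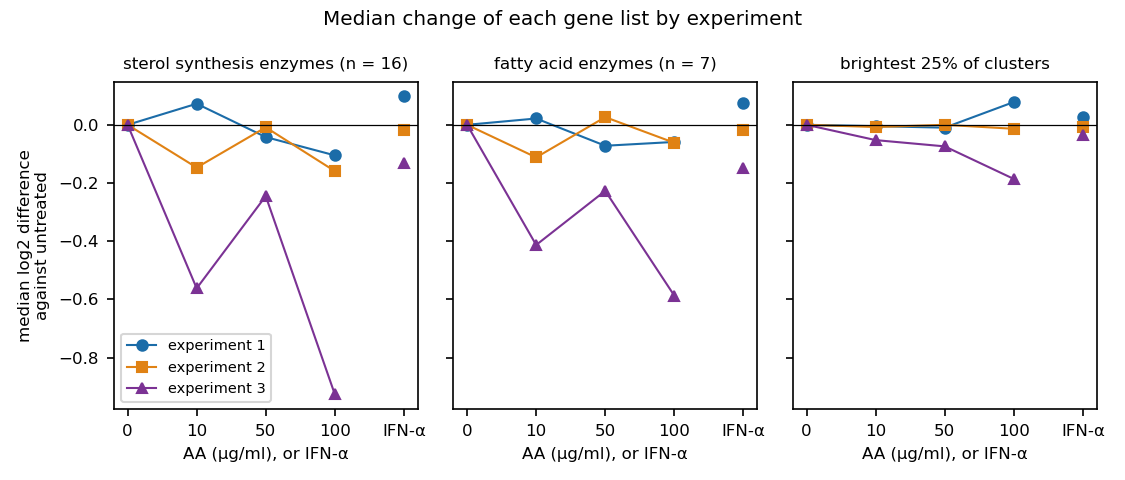
Median difference of log2 values against the untreated array run in that experiment, for the sterol enzymes, the fatty acid enzymes and the brightest 25% of clusters, over AA dose and with IFN-α at the right. In experiment 3 the sterol median is -0.56 at the low dose, -0.25 at the intermediate dose and -0.93 at the high dose.

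IFN-α left the members near their untreated level. None of the 28 passed p under 0.001, where 0.280% of clusters passed, or p under 0.05, where 1.39% passed, and none did with the block. Changes ran from -0.18 for SC5D (SE 0.16, 95% interval -0.53 to 0.17) to 0.14 for ELOVL6 (SE 0.20, 95% interval -0.28 to 0.56), with 15 of 28 lower. The sterol median was 0.098, -0.019 and -0.13 in the 3 experiments. The intervals are wide, and for CYP51A1 they allow a change from -0.92 to 0.75. CH25H, which makes the interferon-linked oxysterol 25-hydroxycholesterol and was named after its values were seen, read 5.51 ± 0.10 untreated and 5.55 ± 0.11 with IFN-α (SD, n = 3), a difference of 0.044 (SE 0.16, limma). Its signal was near the lower quartile (5.20 to 5.53 over arrays), so it may not have been detected in either group.

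High-dose AA was also compared with IFN-α directly. No member passed p under 0.001 (0.650% of clusters). At p under 0.05 STARD4 (-0.53, SE 0.18), LSS (-0.46, SE 0.21) and CYP51A1 (-0.86, SE 0.39) were lower with AA (limma), 3 of 28 against 12.1% of clusters. With the block the count was 19 of 28 against 17.6% of clusters, HMGCS1 having the lowest p (-0.44, SE 0.11, adjusted p = 0.102, limma with the block). HMGCS1 in experiment 3 read 12.02 with IFN-α and 11.23 with high-dose AA. Without the block, the 3 became 1 without high-dose AA replicate 3, IFN-α replicate 1, any untreated replicate, low-dose AA replicate 2 or intermediate-dose AA replicate 2, 2 without each of the other intermediate-dose or IFN-α arrays, and 12 without high-dose AA replicate 1.

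Neighbouring lipid pathways, in lists that hold no member, had smaller median differences at the high dose. Members and lists were chosen with earlier results of these data known, so this contrast is a description only. None of the neighbouring genes passed p under 0.001 at the high dose. Of 10 other SREBP and sterol regulators measured, 9 were lower with a median of -0.097 and none passed p under 0.05. INSIG2, the second INSIG protein, read 8.69, 8.54 and 8.60 untreated and 8.49, 8.08 and 7.09 at the high dose, a difference of -0.72 (SE 0.36, adjusted p = 0.477, limma). In the low dose it read 8.92, 8.08 and 7.45, low again in experiment 3. The efflux pump ABCG1 (-0.19, SE 0.12) and the oxysterol receptor NR1H3 (-0.10, SE 0.074) were next by p (limma).

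Of 10 sterol transport genes, 9 were lower at the high dose, with a median of -0.17, and LIPA, the lysosomal lipase that frees cholesterol from its esters, passed p under 0.05 (-0.22, SE 0.083, adjusted p = 0.441, limma). GRAMD1A, a sterol transfer protein, was at -0.32 (SE 0.16) and OSBPL1A at 0.12 (SE 0.077). Of 13 other isoprenoid and sterol genes, 8 were lower with a median of -0.034, led by DHDDS of dolichol synthesis (-0.47, SE 0.26). Of 17 further fatty acid genes, 12 were lower with a median of -0.070, and the elongase ELOVL7 passed p under 0.05 (-0.28, SE 0.13, adjusted p = 0.451, limma), while HACD3, a dehydratase of chain elongation, was at 0.24 (SE 0.13). Of 10 phospholipid and triglyceride genes, 7 were lower with a median of -0.12, led by the phosphatidate phosphatase LPIN1 (-0.52, SE 0.29, adjusted p = 0.506, limma), which read 9.73, 9.29 and 9.37 untreated and 9.38, 9.03 and 8.42 at the high dose.

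With the block, 3 of 10 other regulators, 3 of 10 transport genes, 1 of 13 isoprenoid genes, 3 of 17 fatty acid genes and 2 of 10 phospholipid genes passed p under 0.05 at the high dose, LPIN1 with the lowest p (limma). These were 12 of 60 genes, beside 16.2% of clusters, and all were lower but HACD3. With IFN-α none of these lists had a gene past p under 0.05. LPIN1 (0.63, adjusted p = 0.00172) and INSIG2 (0.63, adjusted p = 0.039) were also higher in experiment 1 (limma), as the members were. In all, 3, 0, 2, 3 and 3 genes of the regulator, transport, isoprenoid, fatty acid and phospholipid lists were higher in experiment 1 at an adjusted p under 0.05, where 3.98% of clusters were. The transport gene STARD5 (-0.47, adjusted p = 0.00867) and HACD3 (-0.26, adjusted p = 0.0141) were lower there (limma).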

How the data were processed

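RNA of 15 MT-2 samples was hybridised to Affymetrix Human Gene 1.0 ST arrays. The deposited table holds log2 expression values that, per the study's methods, the authors made with RMA in the xps package. The number of arrays, 3 per group, limits the precision.

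No value was normalized again. Clusters were named from the probe annotation and used where it gave 1 symbol, as for 19310 of 28926. limma 3.58.1 in R 4.3.3 was fitted to all clusters and 15 arrays with 5 groups and no block. The study's methods name limma contrasts between these groups and mention no block. Calls were made at their unadjusted p-value under 0.001. This fit called 75 clusters at the high dose and 81 with IFN-α, fewer than the genes the study reported for each. Counts at 0.05 and Benjamini-Hochberg adjusted p-values over all clusters stand beside it. Replicate numbers follow the date tags in the titles, and arrays that share a tag are here called an experiment. Whether the tags of the same date were separate cultures is not stated. Same-number arrays deviated together in 25 of 30 pairs (r above 0.1, median 0.281, range -0.194 to 0.536; arrays of different numbers, median -0.172), so the block value is given where it changes a count. The brightest 25% of clusters by mean value served as a further background. The fit was tested on simulated data. Every member is named, with up to 3 genes of each neighbouring list by smallest p at the high dose and with IFN-α. Members and lists were chosen with earlier results of these data known. Promoter motifs were searched in RefSeq sequence. Figures were drawn with matplotlib 3.10.9.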

Additional observations from a re-analysis of the deposited data

How the results depend on the processing

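With 3 arrays a group and experiments that differ, errors without the block were wide, and ELOVL6, at 5.08 to 5.91, was near the lower quartile of signal (5.20 to 5.53 over arrays). No member passed p under 0.001 in any treatment comparison under the settings run, except STARD4 at the low dose (1 of 28) with the block and high-dose AA array 3 left out. No sign of a named member's call or of a list median in the settings that kept all arrays turned.

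Counts of members past p under 0.05 changed as follows. At the high dose the 2 became 19 with the replicate block, 3 with it as a random effect, 7 with array weights (whose estimation did not fully converge), 0 with only the compared arrays, and 7 with the block and high-dose AA array 3 left out, and from 1 to 14 with an array or experiment left out. At the low dose the 0 became 6 with the block, 2 with the block as a random effect, 1 each with cyclic loess, array weights or only the compared arrays, 9 with the block and high-dose AA array 3 left out, and 0 to 7 with an array or experiment left out (at most 6 with a single array). At the intermediate dose the 0 became 1 with array weights, only the compared arrays, or the block and high-dose AA array 3 left out, and 0 to 1 with an array or experiment left out. For the high dose against IFN-α the 3 became 19 with the block, 5 with it as a random effect, 6 with array weights, 0 with only the compared arrays, 5 with the block and high-dose AA array 3 left out, and 1 to 12 with an array or experiment left out. For the slope the 2 became 7 with the block, 3 with it as a random effect, 0 with array weights, and 0 to 5 with an array or experiment left out. Taking p under 0.05 in place of 0.001 as the call gives 2, 3 and 2 members for the high dose, the high dose against IFN-α and the slope. With an array left out and the rest of its experiment kept, the sterol median ran from -0.234 to 0.0209 at the intermediate dose. With IFN-α it ran from -0.177 to 0.0877, and the fatty acid median from -0.138 to 0.0749. The members higher in experiment 1 at p under 0.001 ran from 13 to 24 of 28. The replicate block changed no other count of calls, and the cause of these changes was not tested beyond the construction of each setting. With array weights CYP51A1 and STARD4 at the high dose were -0.522 and -0.293. By cyclic loess and by centring on the brightest 25%, the sterol median at the high dose in experiments 1, 2 and 3 was -0.171, -0.152 and -0.75, and -0.179, -0.14 and -0.74.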
